A study of Mus musculus with 3 samples.

Results

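The myogenic regulatory factors are the 4 genes whose symbol in the count files is Myod1, Myf5, Myog or Myf6, out of 23238 symbols in all. All 4 were listed in every library, and all 4 were kept among the 13169 genes tested, which are those with a CPM (counts scaled to a common library total) of 1 or more in at least 1 library. The RNA was that of c2c12, an immortalized mouse myoblast line that forms myotubes, after 2 days of differentiation in medium with 2% horse serum. The labels set the groups apart by culture substrate. Cells were cultured on a tissue culture plate (TCP), on a hydrogel of methacrylated gelatin (GelMA), or on a hydrogel of 15% GelMA with 1% poly(sodium 4-styrenesulfonate) (PSS), a sulfonated polymer that mimics heparin (GelMA-PSS). There was 1 library per substrate, so differences between substrates could not be set against the spread of replicates, and no p-values are given. The intervals given below cover counting error only.

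The 4 factors are transcription factors of the basic helix-loop-helix class. Each pairs with an E protein and binds the E-box, a short DNA motif found near many muscle genes. MyoD (Myod1) and Myf5 are known for committing progenitor cells to the muscle lineage and are present in proliferating myoblasts. Myogenin (Myog) is induced when myoblasts leave the cell cycle and is required for their differentiation. Myf6, also called MRF4, acts in commitment in the embryo and is best known for its expression in mature fibers.

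In GRCm38, Myod1 lies on chromosome 7 from 46376474 to 46379099 on the plus strand and Myog on chromosome 1 from 134289989 to 134292548 on the plus strand. Myf5 and Myf6 are neighbours on the minus strand of chromosome 10, from 107482908 to 107486134 and from 107492853 to 107494737, with 6718 bases between them. Each gene has 3 exons, and no other annotated gene overlaps any of them. The transcripts used for levels per length have 1861 bases for Myod1, 2083 for Myf5, 1495 for Myog and 1263 for Myf6.

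The kinship of the 4 genes shows in their coding sequence. The longest run that any pair of these transcripts shares has 26 bases, in the coding sequence of Myod1 and Myf5. It is shown because it bounds how far reads of relatives could be mixed, and it is shorter than the reads described in the methods.
Myod1 and Myf5 shared run: cgcaaggccgccaccatgcgcgagcg
Myod1 and Myog shared run: aaagtgaatgaggccttcgag
The second run, of 21 bases, is also coding in both genes, and every other pair of members shared at most 14 bases.

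RefSeq promoter windows were matched for 2 of the 4 members, Myog and Myf5. These are also the members with the highest level and with the largest difference between substrates. Each window covers 250 bases before to 50 bases after the annotated start in GRCm38.p6. Capitals mark E-boxes, searched as CANNTG, which reads the same on both strands.
Myog promoter, chr1:134289754-134290053, plus strand: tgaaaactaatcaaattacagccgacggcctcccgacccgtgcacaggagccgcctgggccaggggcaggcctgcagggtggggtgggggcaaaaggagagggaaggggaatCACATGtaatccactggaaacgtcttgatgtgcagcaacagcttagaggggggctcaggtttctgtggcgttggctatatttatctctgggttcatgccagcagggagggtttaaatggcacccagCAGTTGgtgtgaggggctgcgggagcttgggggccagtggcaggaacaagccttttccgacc
Myf5 promoter, chr10:107486085-107486384, minus strand: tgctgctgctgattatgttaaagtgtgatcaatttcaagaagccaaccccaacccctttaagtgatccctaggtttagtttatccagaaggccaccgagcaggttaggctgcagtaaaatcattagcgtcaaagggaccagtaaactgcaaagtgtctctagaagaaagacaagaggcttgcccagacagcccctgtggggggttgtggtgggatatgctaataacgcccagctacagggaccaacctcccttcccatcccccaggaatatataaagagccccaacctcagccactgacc
The Myog window holds 2 E-boxes and the Myf5 window 0, while 72.3% of the 32851 RefSeq windows of the same length hold at least 1. The second E-box of Myog is CAGTTG, which on either strand occurs in 13.7% of windows. The MEF3 motif TCAGGTTTC, known from promoters of muscle genes, occurs 1 time in the Myog window, 0 times in the Myf5 window and in 0.429% of all windows, both strands searched. The letters TATAAA occur 1 time in the Myf5 window on the strand of the gene, 20 to 25 bases after the annotated start and not before it. They occur in 8.32% of windows, at any position. MEF2 sites were searched as YTAWWWWTAR and CArG boxes as CCWWWWWWGG, with Y for C or T, W for A or T and R for A or G. No exact match to these patterns was found in either window, on either strand. The run ctatatttat in the Myog window differs from the MEF2 pattern at its last base only, and near matches were not searched for. These matches describe letters and not binding.

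The deposited values were raw counts per gene symbol, which summed to 119799095 in the TCP library, 87071144 in the GelMA library and 192171443 in the GelMA-PSS library. They were scaled to CPM with TMM factors, which adjust each total so that most genes keep a ratio near 1. The 8 myoblast and myotube markers summed to a CPM of 17886 on TCP, 14705 on GelMA and 15178 on GelMA-PSS, but were not even across substrates. In the same order, Des, the muscle intermediate filament, was at 3299, 2863 and 3154. Ncam1 was at 960, 724 and 491, and Vcam1 at 49.5, 75.8 and 77.6. The 3 markers of blood cells, the 3 of endothelium and the 3 of fat cells summed to a CPM between 0.0550 and 2.55 in each library, and Ptprc, Pecam1 and Adipoq were each at a CPM of 0.121 or below. The sums for the 3 epithelial, the 3 bone and the 3 neuronal markers lay between 1.64 and 10.3, mostly from Cdh1, Bglap and Snap25, and Ibsp had 0 counts in every library. Of the cartilage markers, Sox9 lay between 35.4 and 47.0, and Col2a1 had 592 counts on GelMA, 13 on TCP and 2 on GelMA-PSS. In bulk RNA, fewer cells that express a gene and less RNA per cell cannot be told apart.

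Of the early factors, Myod1 differed little between substrates. Its CPM was 94.3 on TCP, 105 on GelMA and 119 on GelMA-PSS, from 11483, 9505 and 21599 counts. GelMA-PSS was the highest library and TCP the lowest, and the counting intervals did not overlap. The GelMA-PSS level was 1.14 times that on GelMA (95% interval from 1.11 to 1.17) and 1.26 times that on TCP (from 1.24 to 1.29). GelMA was itself 1.11 times TCP (from 1.08 to 1.14), a step about as large as the one between the hydrogels.

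Myf5 had the largest ratio in the family, that of GelMA-PSS to TCP. Its CPM was 13.9 on TCP, 19.5 on GelMA and 36.5 on GelMA-PSS, from 1698, 1776 and 6618 counts. The order was thus TCP, GelMA, GelMA-PSS, as for Myod1, an order that 22.5% of all tested genes had. The GelMA-PSS level was 1.87 times that on GelMA (95% interval from 1.77 to 1.97) and 2.62 times that on TCP (from 2.48 to 2.76). Between the control substrates the ratio was 1.40 (from 1.31 to 1.499).

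Myog, the factor of terminal differentiation, was the most abundant member in all 3 libraries and differed by less than 1.5-fold between any of them. Its CPM was 1099.9 on TCP, 895 on GelMA and 1037 on GelMA-PSS, from 133929, 81314 and 187779 counts. By CPM it held rank 82, 110 and 128 among the 23238 symbols. GelMA-PSS lay between the controls, at 1.16 times GelMA (95% interval from 1.15 to 1.17) and 0.942 times TCP (from 0.936 to 0.949). The step between the controls was the largest of the 3, with GelMA at 0.814 times TCP (from 0.806 to 0.821).

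Myf6 was barely expressed. It had 114 counts on TCP, 58 on GelMA and 248 on GelMA-PSS, or a CPM of 0.936, 0.638 and 1.37. GelMA-PSS was the highest library and GelMA the lowest. Only the GelMA-PSS value reached the CPM limit of 1, so Myf6 was tested because of the library in which it is highest. The GelMA-PSS level was 2.14 times that on GelMA, with a wide counting interval from 1.61 to 2.91. Against TCP it was 1.46 times as high (from 1.17 to 1.84). Should both reads of each pair have been counted, which is not known, these intervals would widen to 1.42 to 3.33 and 1.06 to 2.04. The interval for GelMA against TCP, from 0.488 to 0.943, would then run from 0.420 to 1.08 and include 1.

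**Figure D1:**
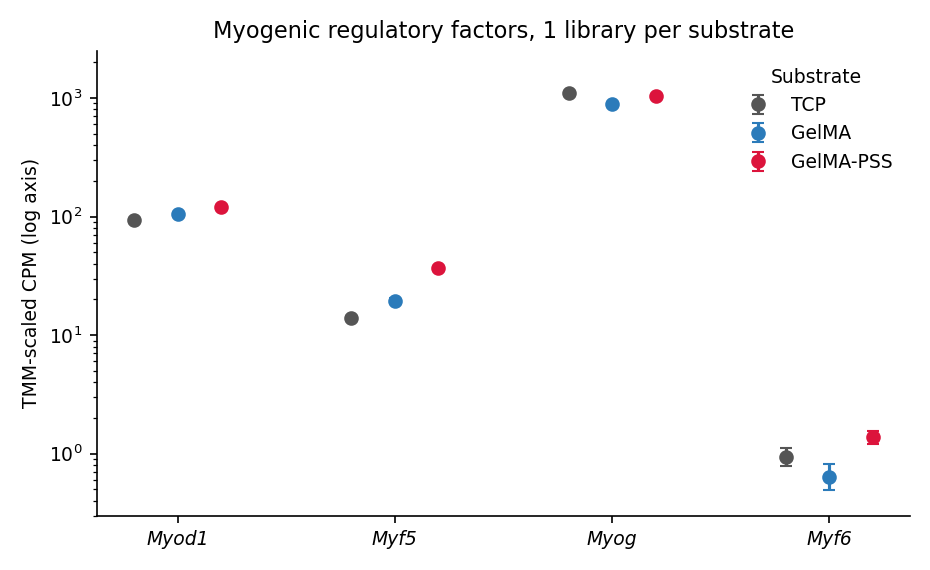
TMM-scaled CPM (log axis) of the 4 factors in the TCP, GelMA and GelMA-PSS libraries, with bars for the 95% Wilson interval of the count, which are narrower than the points except for Myf6. Myog lies between 895 and 1099.9 in every library, while Myf5 goes from 13.9 on TCP to 36.5 on GelMA-PSS.

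Per kilobase of transcript, the order of the family was Myog, Myod1, Myf5, Myf6 in each library, and no neighbours in this order had overlapping counting intervals. In the GelMA-PSS library the levels were a CPM per kilobase of 693 for Myog, 64.1 for Myod1, 17.5 for Myf5 and 1.08 for Myf6. Myog made up 92.7% of the summed CPM per kilobase on TCP, 90.1% on GelMA and 89.3% on GelMA-PSS. The share of Myod1 was 6.38%, 8.46% and 8.26% in the same order. That of Myf5 was 0.843%, 1.41% and 2.26%, and that of Myf6 was 0.0934%, 0.0760% and 0.140%. The family as a whole summed to a CPM per kilobase of 794 on TCP, 665 on GelMA and 776 on GelMA-PSS.

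**Figure D2:**
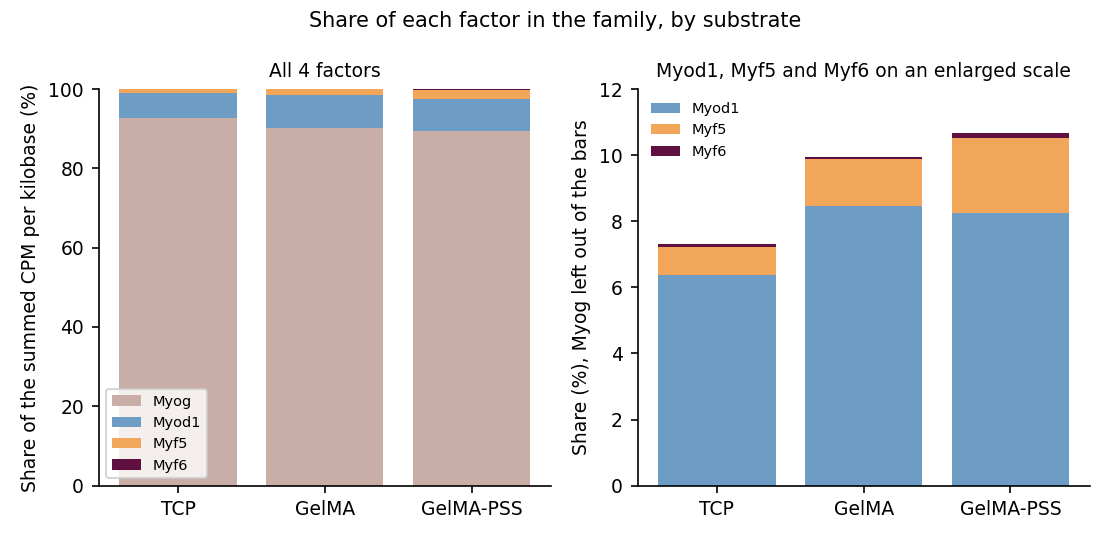
Share of each factor in the summed CPM per kilobase of the 4 factors (in percent) for each substrate, with all factors on the left and Myod1, Myf5 and Myf6 alone on an enlarged scale on the right. Myog takes 92.7%, 90.1% and 89.3%, and the share of Myf5 goes from 0.843% on TCP to 2.26% on GelMA-PSS.

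Ratios between members within a library do not depend on how the libraries are scaled to each other. The per-kilobase ratio of Myog to Myf5 was 109.9 on TCP (95% interval from 104.8 to 115.4), 63.8 on GelMA (from 60.9 to 66.9) and 39.5 on GelMA-PSS (from 38.6 to 40.5). Myod1 to Myf5 gave 7.57, 5.99 and 3.65 in the same order, again with intervals that did not overlap. Against Myog and Myod1, Myf5 was thus highest on GelMA-PSS and lowest on TCP. Against Myf6, which had few counts, this order did not hold. The ratio of Myf5 to Myf6 was 9.03 on TCP, with an interval below those of both hydrogels. It was 18.6 on GelMA (from 14.3 to 24.6) and 16.2 on GelMA-PSS (from 14.3 to 18.4), so the hydrogels overlapped. The ratio of Myog to Myod1 was 14.5 on TCP (from 14.2 to 14.8), while the hydrogels overlapped at 10.6 on GelMA (from 10.4 to 10.9) and 10.8 on GelMA-PSS (from 10.67 to 10.98). Before the length and GC correction given further on, any difference in this ratio between the hydrogels was thus within counting error. With that correction, the log2 ratios of GelMA-PSS against GelMA were -0.087 for Myog and 0.037 for Myod1.

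For the comparison with all other genes, each ratio is the difference of log2(CPM + 1) values, and the added 1 shrinks the ratio of a gene as low as Myf6. The 2.14 of Myf6 against GelMA became 0.53 on this log2 scale, below 2-fold, and with a pseudocount of 0.1 in place of 1 it was 0.99, also below. With the 2-fold threshold of the methods, 0 of 4 members were higher or lower in GelMA-PSS than in GelMA, where 1.77% of all tested genes were higher and 2.33% lower. Against TCP, 1 of 4, Myf5, was higher and 0 were lower, with 3.72% and 3.13% of all tested genes. Between GelMA and TCP, 0 of 4 passed in either direction, with 0.706% of genes higher and 0.296% lower. Past 2-fold against both controls at once were 0 of 4, with 1.37% of tested genes higher and 1.16% lower.

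At a lower threshold of 1.5-fold, Myf5 was, of the 4 members, the 1 gene higher in GelMA-PSS than in GelMA, with 11% of tested genes higher and 10.8% lower, and the 1 gene higher than in TCP, with 13.2% and 11.5%. For GelMA against TCP 0 of 4 passed, with 3.5% of tested genes higher and 2.12% lower. Myf5 was therefore also the 1 member past 1.5-fold over the pair of controls, a pattern of 8.08% of tested genes, while 0 of 4 were lower, against 7.18%. Its 1.5-fold call against GelMA, and so over both controls, ended with the length and GC correction given further on, at a log2 ratio of 0.53, and with TPM scaling, at 0.42. At any size, Myod1 and Myf5 lay above both controls, as 45.3% of tested genes did, and 0 of 4 lay below both, against 39.3%. Myf6 is not counted with them, since its GelMA-PSS value alone brought it past the CPM limit.

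The log2 ratios of GelMA-PSS against GelMA were 0.19 for Myod1, 0.87 for Myf5, 0.21 for Myog and 0.53 for Myf6, beside a median of 0.03 for all tested genes. Against TCP they were 0.34, 1.33, -0.09 and 0.29, beside a median of 0.04. The ratio of Myf5 was above that of 96.7% of tested genes against GelMA and of 98.8% against TCP. For GelMA against TCP the ratios were 0.15, 0.46, -0.30 and -0.24, beside a median of -0.01. Both ratios of GelMA-PSS share the same GelMA-PSS library. With TPM scaling, which sets the counts per kilobase to a common sum, the ratios of Myod1 turned negative, at -0.28 against GelMA and -0.078 against TCP, and that of Myog against GelMA became -0.26. The median of all genes moved with them to -0.39 and -0.34. Relative to that median, Myod1 was 0.11 and 0.26 higher, Myog 0.13 higher and 0.16 lower, and Myf5 0.81 and 1.27 higher.

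**Figure D3:**
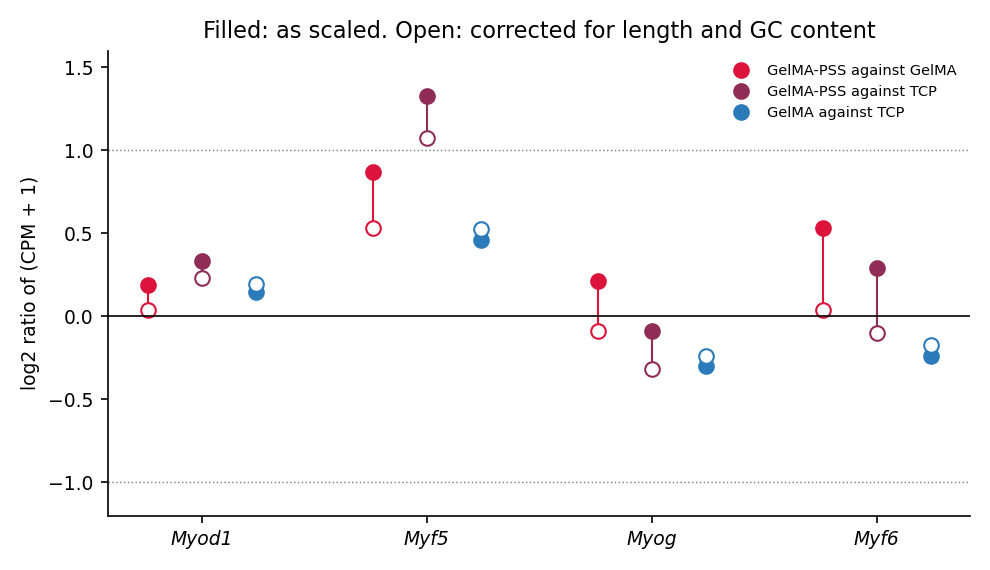
Log2 ratio of (CPM + 1) for each factor and each pair of substrates, before (filled points) and after (open points) correction for transcript length and GC content, with dotted lines at 2-fold. Myf5 is the highest of the 4 in every comparison, at 0.87, 1.33 and 0.46 before the correction.

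Transcript length moves with the ratios of the GelMA-PSS library. Among 13060 tested genes with an annotated transcript, the rank correlation (Spearman's rho) of ratio and length was -0.66 against GelMA and -0.50 against TCP, as a description across genes. For GelMA against TCP it was 0.21, so the controls also differed with length, less strongly and in the other direction. All 4 members are shorter than the median of 2914 bases. Myod1 falls in length decile 3, counted from the shortest, Myf5 in decile 4 and Myog and Myf6 in decile 2. The median ratio against GelMA was 0.27, 0.17 and 0.40 in these deciles. After a loess correction for length and GC content, the ratio against GelMA was 0.037 for Myod1, 0.53 for Myf5, -0.087 for Myog and 0.042 for Myf6. Against TCP the corrected ratios were 0.23, 1.07, -0.32 and -0.10. With the correction, Myf5 therefore remained past 2-fold against TCP, where 2.02% of genes with a length were higher and 2.4% lower. Against GelMA 0 of 4 were past it, with 0.666% higher and 1.2% lower. By the corrected values Myog was below both controls and Myf6 was above GelMA and below TCP.

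**Figure D4:**
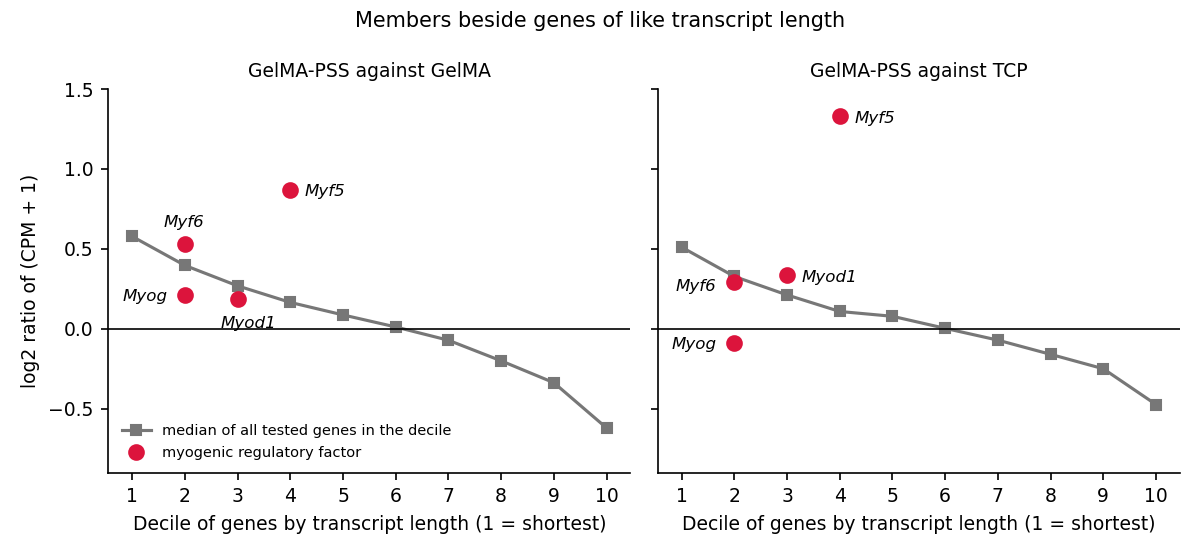
Log2 ratio of (CPM + 1) of the 4 factors beside the median of all tested genes in each decile by transcript length, against GelMA on the left and TCP on the right. Myf5 lies above the median of its decile in both panels, whereas Myog lies below the median of its decile, which is 0.40 against GelMA.

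The partners, inhibitors, regulators and targets of the family were described with hand-written lists, some of which share genes, such as Musk, Chrna1 and Tnnt2. Among all tested genes, 1.77% were higher and 2.33% lower by 2-fold against GelMA, and 3.72% and 3.13% against TCP. After the length and GC correction these shares were 0.666% and 1.2% against GelMA, and 2.02% and 2.4% against TCP. Of the 3 E proteins, the dimer partners that the factors need to bind DNA, 0 passed 2-fold. Tcf3 had a CPM of 98.6 on TCP, 121 on GelMA and 123 on GelMA-PSS. Tcf12 had 132, 146 and 119, and its log2 ratios of -0.29 to GelMA and -0.15 to TCP turned to 0.063 and 0.099 once corrected. Tcf4 was lowest on GelMA-PSS, at 117, 102 and 59.5, which is a log2 ratio of -0.76 to GelMA and of -0.97 to TCP.

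Among the Id proteins and other inhibitors, 2 of 16 tested genes were at least 2-fold higher in GelMA-PSS than in GelMA and than in TCP, and 0 were lower in either comparison. Of all tested genes, 1.37% were higher than in both controls. The list had a median of 0.15 and 0.33. At any size, 10 of the 16 lay above both controls and 3 below both, where 45.3% and 39.3% of all tested genes did. The 3 were Bhlhe40, Zeb1 and Bhlha15, with Bhlhe40 at log2 ratios of -0.59 to GelMA and -0.75 to TCP. The 2 genes higher by 2-fold were Id3 and Msc. Id3, which binds E proteins and keeps them from the myogenic factors, had a CPM of 15.2 on TCP, 26.0 on GelMA and 62.1 on GelMA-PSS. Msc, or musculin, a repressor that binds E-boxes, had 1.75, 2.77 and 8.26. Both followed the order of Myf5. With the length and GC correction, Msc stayed past 2-fold against GelMA, at a log2 ratio of 1.11, whereas Id3 did not, at 0.86, so that 1 of 16 was left in that comparison. Against TCP both stayed past it, at 1.68 for Id3 and 1.61 for Msc. Id1 had a CPM of 10.8, 11.8 and 21.1 in the order TCP, GelMA, GelMA-PSS, Id2 had 19.7, 23.1 and 33.4, and Hey1, an effector of Notch signaling, 12.5, 15.2 and 26.0. All 3 were highest on GelMA-PSS, below the 2-fold threshold. The ratio of Id2 against GelMA turned from 0.51 to -0.012 once corrected. Id4, Twist1 and Mdfi did not reach the CPM limit.

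Of 19 tested upstream regulators of the family, 15 were below both controls and 2 above both, where 39.3% and 45.3% of all tested genes were. The median of the list was -0.48 when compared to GelMA and -0.36 when compared to TCP. At 2-fold, 1 was lower against GelMA and 2 against TCP, and 0 were higher. With the length and GC correction the medians were -0.22 and -0.086, and 0 and 1 were lower. Pax7, the factor of satellite cells that acts upstream of Myf5, had a CPM of 11.2 on TCP, 10.5 on GelMA and 6.01 on GelMA-PSS, the opposite order to Myf5. Pax3 stayed near the limit, at 1.17, 1.19 and 0.690. Tead1 had log2 ratios of -1.12 and -1.22, and -0.53 relative to both controls together once corrected. Klf5 had -0.86 and -1.15, and -1.01 once corrected. The 3 tested Mef2 genes, cofactors and targets of myogenin, were all below both controls. Before the correction Mef2c alone was past 2-fold, with a CPM of 289 on TCP, 181 on GelMA and 81.0 on GelMA-PSS. Once corrected, 0 of the 3 were past it against GelMA, with Mef2c at -0.85, and 2 were against TCP, Mef2c at -1.61 and Mef2d at -1.05.

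Coactivators and chromatin partners had 3 of 24 genes lower by at least 2-fold against each control, where 2.33% and 3.13% of all tested genes were. In this list 0 were higher, with a median of -0.36 and -0.22. Crebbp, an acetyltransferase that MyoD recruits, had a log2 ratio of -1.55 to GelMA and of -1.24 to TCP. Kmt2d, a histone methyltransferase, had -2.36 and -1.82. Their transcripts have 10820 and 19823 bases, and 0 of the 24 passed 2-fold in either comparison after the length and GC correction. Of 20 corepressors, 11 were below both controls and 5 above both, where 39.3% and 45.3% of all tested genes were. Their list had a median of -0.19 and -0.08. By 2-fold, 2 were lower against GelMA and 1 against TCP, and 0 were higher in either comparison. Hdac4, a class II histone deacetylase that represses Mef2 factors, had a CPM of 16.9 on TCP, 24.5 on GelMA and 9.65 on GelMA-PSS, with log2 ratios of -1.26 and -0.75. After the correction 0 of 20 passed 2-fold.

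The median of the early targets was -0.13 when compared to GelMA and -0.57 when compared to TCP. Of 28 genes, 20 were below both controls and 3 above both, where 39.3% and 45.3% of all tested genes were. At 2-fold, 3 were lower in each comparison, where 2.33% and 3.13% of all tested genes were, and 0 were higher. Once corrected, 0 were lower against GelMA and 3 against TCP. Chrna1, the acetylcholine receptor subunit whose promoter E-boxes are a classical MyoD target, had a CPM of 1818 on TCP, 1343 on GelMA and 1423 on GelMA-PSS. Cdh15, or M-cadherin, was at 669, 609.6 and 672. Myh3, the embryonic myosin heavy chain, was at 10182, 6355 and 3037, and Musk, the receptor kinase of the endplate, at 70.5, 75.6 and 36.9. Their corrected log2 ratios against GelMA were -0.61 and -0.99. Ttn had a log2 ratio of -2.42 against GelMA, but 0.24 once corrected for length and GC, with a transcript of 106824 bases.

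Late targets are the genes of the contractile apparatus and its energy supply. By 2-fold, 7 of 39 were lower against GelMA and 12 against TCP, where 2.33% and 3.13% of all tested genes were. In either comparison 0 were higher. The median of the late targets was -0.12 when compared to GelMA and -0.59 when compared to TCP. After the correction, 2 were lower against GelMA and 13 against TCP. GelMA was itself below TCP for 39 of 39, with a median of -0.51, beside a median of -0.01 for all tested genes. The share of all tested genes below TCP at any size was not counted. By 2-fold, 2 of the 39 were lower on GelMA than on TCP, where 0.296% of all tested genes were. Ckm, the muscle creatine kinase with enhancer E-boxes known as MyoD and myogenin sites, had a CPM of 542 on TCP, 430.3 on GelMA and 380 on GelMA-PSS. Myh4, the fast IIb myosin, had 429, 207 and 69.0, and log2 ratios of -1.57 and -2.62. Neb and Ryr1 had -2.12 and -1.80 against GelMA, with transcripts of 22489 and 15300 bases, and -0.69 and -0.55 once corrected. At the other end of the list, Mylk2 was highest against TCP, at 0.083, with a transcript of 2951 bases, and stayed at 0.12 once corrected. Mylpf and Tnni2 had log2 ratios of 0.047 and -0.095 against TCP, with transcripts of 766 and 768 bases, and -0.46 and -0.55 once corrected.

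Genes of cell cycle exit had 1 of 11 members higher by 2-fold against GelMA, which was Gadd45g, and 0 lower, where 1.77% and 2.33% of all tested genes were. Against TCP, 0 passed in either direction. The call of Gadd45g ended with the length and GC correction, at 0.72, and also with plain CPM and with TPM scaling. Cdkn1a, the inhibitor p21 that accompanies myogenin at cell cycle exit, had a CPM of 1480.4 on TCP, 1204 on GelMA and 1186 on GelMA-PSS. Gadd45g had 47.2, 42.7 and 93.0. Cdkn1c was low, at 3.28, 2.59 and 1.55. Of 22 fusion and endplate targets, 2 were lower by 2-fold in each comparison, where 2.33% and 3.13% of all tested genes were, and 0 were higher. Their list had a median of -0.14 and -0.41. Once corrected, 0 were lower in either comparison. The fusogen Mymk, listed under its older symbol Tmem8c, had a CPM of 1029.8 on TCP, 773 on GelMA and 669.8 on GelMA-PSS. The fusogen Mymx, listed as Gm7325, had 226, 175 and 234. The log2 ratios of Mymx, 0.42 to GelMA and 0.053 to TCP, turned to -0.11 and -0.42 once corrected, with a transcript of 616 bases. Adam12, at a CPM of 7.32, 7.48 and 2.11, and Dysf, at 215, 171 and 89.1, were the other named members.

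**Figure D5:**
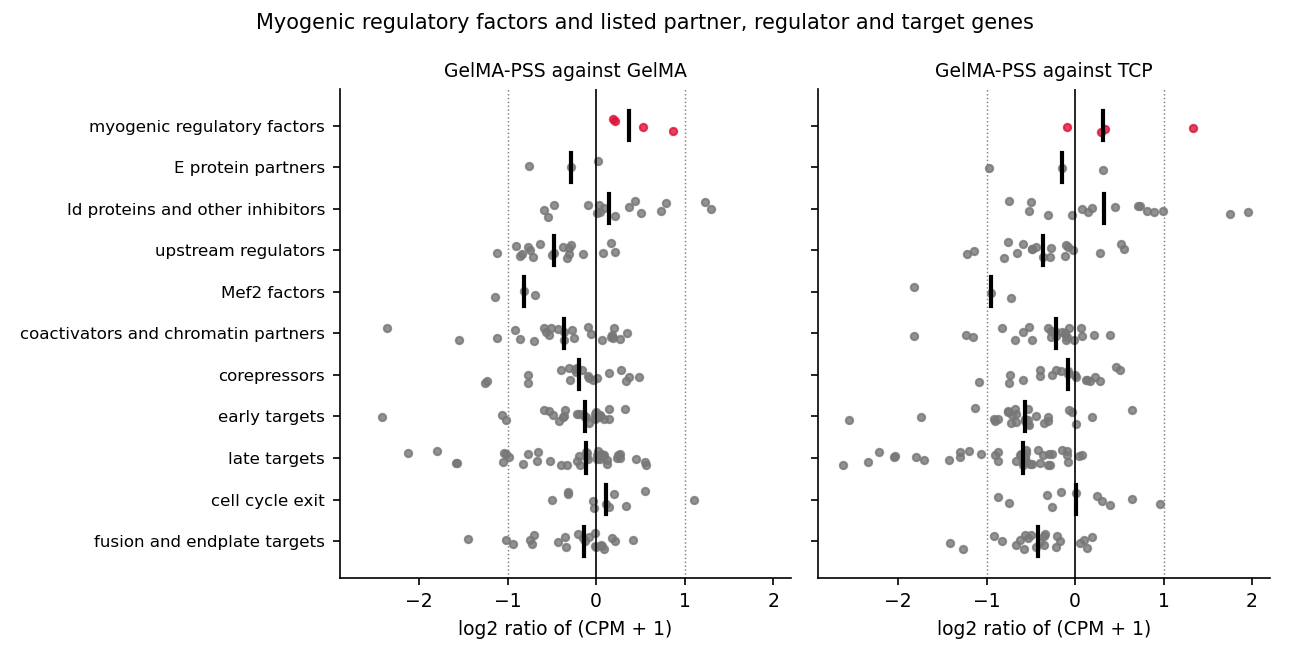
Log2 ratio of (CPM + 1) of each tested gene (points) in the family (red) and in each list (grey), against GelMA on the left and against TCP on the right, with black bars for the medians and dotted lines at 2-fold. The family has a median of 0.37 and 0.31, which includes Myf6, kept through its GelMA-PSS value alone. The early targets have -0.13 and -0.57. Once corrected for length and GC content, the medians are 0.039 and 0.064 for the family and -0.28 and -0.68 for the early targets.

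The genes whose values over the 3 libraries were most like those of each member were found by the distance between 2 log2 ratios, GelMA against TCP and GelMA-PSS against GelMA. With 3 libraries this is a description. For Myf5 the nearest of 9665 genes with a CPM of 10 or more were Rpa3, a subunit of the single-strand DNA-binding protein of replication, Gm5148 and Birc5, or survivin, a protein of the mitotic chromosomes, at distances of 0.033, 0.041 and 0.064. Birc5 had a CPM of 12.4 on TCP, 16.6 on GelMA and 31.1 on GelMA-PSS. Within 0.1 of Myf5 lay 12 genes, against 243 for Myod1, 191 for Myog and 209 for Myf6. Since Myf5 was above 96.7% of tested genes against GelMA, its small count restates the size of its ratios. The nearest were Toe1, Alyref and BC017158 for Myod1, Ggnbp2, Btbd10 and St7 for Myog, and Rsph3a, Denr and Exosc9 for Myf6.

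The neighbours of the members on the chromosome were looked up after their values were known. Beside Myod1 lie Otog and, below the CPM limit, Kcnc1. Otog had a CPM of 83.8 on TCP, 79.6 on GelMA and 57.5 on GelMA-PSS. Its log2 ratios were -0.46 against GelMA and -0.54 against TCP, while Sergef, beyond Kcnc1, had 0.41 and 0.50. Next to Myog lie Mybph and Adora1 on one side and Ppfia4 on the other. All 3 were lowest on GelMA-PSS and highest on TCP, with log2 ratios against TCP of -0.76, -0.79 and -1.26, whereas Myog had -0.09. Mybph and Adora1 overlap, since Mybph ends at 134201232 and Adora1 starts at 134199223. Whether reads of Mybph were counted for Adora1 was not tested. The ratios of all neighbours are given without the length and GC correction. The other tested neighbours of Myog, Chil1 and Tmem183a, were higher on GelMA-PSS, at 0.31 and 0.07 against TCP and 0.46 and 0.11 against GelMA. Beside the pair of Myf5 and Myf6 lie Lin7a and Ptprq. Lin7a, below the CPM limit, was at a CPM of 0.452 on TCP, 0.594 on GelMA and 0.552 on GelMA-PSS. Ptprq, at 0.591, 0.682 and 1.04 in the same order, reached the limit on GelMA-PSS only. Neither gene was near the level of Myf5.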

How the data were processed

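Each of the 3 substrates had 1 RNA-seq library, assigned from the sample labels. The values are raw counts for each gene symbol as the authors deposited them. The submitters' processing notes name TopHat, edgeR, mm10 and hg19 without their roles, and the counting tool and annotation are not given in the sources used here. The methods name a TruSeq kit and the labels a SMARTER kit. Differential expression in the methods rests on FPKM with a 2-fold threshold. A ratio of FPKM for a gene equals that of plain CPM, which is among the alternatives.

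The 23282 lines were summed to 23238 symbols, since 35 symbols had more than 1 line. The TMM factors of the TCP, GelMA and GelMA-PSS libraries were 1.02, 1.04 and 0.943 (Python 3.11.15, numpy 2.4.6, pandas 2.3.3) and were checked against edgeR 4.0.16. A floor of 3 counts corresponds to a CPM of 0.0246, 0.0330 and 0.0166. Levels carry Wilson intervals and ratios exact binomial (Clopper-Pearson) intervals at 95% (scipy 1.17.1), which cover counting error only. Transcript lengths came from GENCODE vM21 (GRCm38), by symbol for 22197 genes and by older symbol for 669, while 372 were not matched. The correction subtracted loess fits with a span of 0.3 on length and GC content (statsmodels 0.14.6). The code that makes the calls was run on simulated counts with counting error only, which cannot show how replicate cultures would vary. The members and gene lists were chosen with earlier results of these data known. Genes named are the 4 members, up to 3 per list with the largest ratio against the mean of the controls, a set of well-known partners and targets, and the 3 genes nearest to each member in pattern. Beyond this rule, Des, Ncam1, Vcam1, Ptprc, Pecam1, Adipoq, Sox9, Col2a1, Id4, Twist1, Mdfi, Cdh15, Mylk2, Mylpf, Tnni2 and the chromosomal neighbours were chosen with their values in view. So were Bhlhe40, Zeb1 and Bhlha15. Alternatives covered scaling, pseudocount, filter, threshold and the correction. A result for 1 gene is not reported here.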

Additional observations from a re-analysis of the deposited data

How the results depend on the processing

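With 1 library per substrate, no library could be left out, and the depth limits Myf6 most, with 58 counts on GelMA. No paired analysis was possible because each substrate has 1 library. Median-of-ratios scaling and the absence of a filter moved no ratio of the 4 factors beyond its counting interval, and upper-quartile scaling moved only Myog against GelMA, to 0.20. Myf5 kept its direction under every alternative, from 0.42 to 0.90 against GelMA and from 0.93 to 1.38 against TCP, and with TPM scaling, added after the data were seen, it was below 2-fold against TCP at 0.93.

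With plain CPM, which moved the median of all genes from 0.03 to -0.10 against GelMA and from 0.04 to -0.06 against TCP, the log2 ratios against GelMA were 0.042 for Myod1, 0.73 for Myf5 and 0.065 for Myog. Against TCP they were 0.23, 1.22 and -0.19, and GelMA against TCP was -0.26 for Myog. Plain CPM took the share of 2-fold calls that were higher from 43.2% to 19.2% against GelMA and from 54.3% to 37.0% against TCP, and TPM scaling took it to 2.76% and 9.78%. With TPM scaling the ratios against GelMA were -0.28 for Myod1, 0.42 for Myf5 and -0.26 for Myog, those against TCP were -0.078, 0.93 and -0.50, and those of GelMA against TCP were 0.20 for Myod1 and -0.25 for Myog. With the length and GC correction the ratios against GelMA were 0.037 for Myod1, 0.53 for Myf5, -0.087 for Myog and 0.042 for Myf6, those against TCP were 0.23, 1.07, -0.32 and -0.10, and those of GelMA against TCP were 0.19 for Myod1 and -0.24 for Myog. A pseudocount of 5 gave 0.76 and 1.13 for Myf5, and a pseudocount of 0.1 gave 0.99 for Myf6 against GelMA. Among the named genes, Ttn against GelMA reversed from -2.42 to 0.24 with the length and GC correction.

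Over the 177 tested genes of all lists, 18 were lower and 3 higher by 2-fold against GelMA, 24 lower and 2 higher against TCP, and 2 lower and 0 higher for GelMA against TCP. The shares of all tested genes were 2.33% and 1.77%, 3.13% and 3.72%, and 0.296% and 0.706%. At 1.5-fold the list counts became 45 and 5, 60 and 10, and 16 and 3. The shares of all tested genes were then 10.8% and 11%, 11.5% and 13.2%, and 2.12% and 3.5%. TPM scaling gave 47 lower and 0 higher against GelMA, 57 lower against TCP and 1 lower for GelMA against TCP. Of all 13209 genes tested with it, 1375 were lower and 39 higher against GelMA, 1310 lower against TCP and 32 lower for GelMA against TCP. The length and GC correction gave 2 lower and 1 higher against GelMA, with 1.2% and 0.666% of all genes with a length. A pseudocount of 5 gave 1 higher against TCP, with 273 of all 13169 tested genes. The cause of the shifts between settings was not tested.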
